A study of Mus musculus with 2 samples.

Results

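The livers compared were those of Wip1 knockout (Wip1 KO) and wild-type (WT) mice, both aged 3 months and both taken 36 h after partial hepatectomy, on 1 two-colour array of the 2 arrays in the series. Partial hepatectomy removes part of the liver and sets the rest to regrow. Per the labels, Wip1 KO RNA carried the red dye Cy5 and WT RNA the green dye Cy3 on both arrays, with no dye swap. The sources used here do not say how the knockout was made, how many animals gave RNA or of which sex they were. The genes described are those whose spot exceeded its local background by more than 2 background SDs in both channels, 7461 of 19438 genes named on the array, called measured genes here. Each had 1 value per genotype and no replicate, so differences are given as sizes, with no test and no spread between animals.

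Wip1 is the protein of Ppm1d, a phosphatase that p53 induces and that removes phosphate from p53, from the p38 kinase and from kinases and histones of the DNA damage response, and so ends that response. After partial hepatectomy, hepatocytes leave rest, copy their DNA in a first wave and then divide, while they go on making plasma proteins and running the urea cycle. Mouse hepatocytes pass from DNA synthesis to mitosis in the second day, so a 36 h sample can hold cells of both phases. The comparison asks how livers without Wip1 differ from WT livers at that point.

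A level below is the normalised brightness of a gene's brightest probe in arbitrary units, and a log2 ratio is that of Wip1 KO over WT, so that 1 is 2-fold higher and -1 is 2-fold lower in Wip1 KO. A difference in brightness between probes of different genes is no difference in their RNA; brightness across genes served only to choose and group spots and to sum markers. Of 31920 gene probes, 9920 (31.1%) were above background in Wip1 KO and 11754 (36.8%) in WT. Repeated spots of 4 control genes had a pooled SD of 0.15 log2 units, and probes of the same gene had an SD of 0.26 over 808 genes, both within the array. The SD of the control spots is that around each gene's own mean, and these means lay between -0.36 (Ldha) and 0.039 (Gapd). In Wip1 KO 15 gene probes were saturated, in WT 0, and 14 genes whose chosen spot was saturated in Wip1 KO are given with their ratio as a lower bound. Ppm1d was below background in both channels on its only probe, which therefore checks neither label. The liver markers Alb, Ttr, Apoa1, Apoh, Ahsg, Trf, Cps1, Tat and Fgb were all measured, at 775 units or more in both genotypes, and the array names no Serpina1a probe.

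In Wip1 KO liver 199 genes were at least 2-fold higher (2.67% of measured genes) and 154 were lower by as much (2.06%), 353 in all (4.73%). These genes are called 2-fold higher and 2-fold lower below. The ratios were centred near 0, with 4029 of 7461 genes (54.0%) above it and a median of 0.033, and the central 95% of genes lay between -0.91 and 1.03. At 8-fold, 10 genes were higher and 11 lower, and 14 of these 21 belonged to lists of genes that male and female mouse liver express differently. Those lists held 62 of all 7461 measured genes. Among the 34 genes at least 4-fold higher and the 26 at least 4-fold lower, 9 were male-biased and 11 female-biased. Cell cycle, mitosis and DNA replication lists held 28 of the 154 genes that were 2-fold lower and 1 of the 199 that were higher. Of all 7461 measured genes, 96 were in the cell cycle and mitosis lists and 64 in the DNA replication lists. Split by brightness into 4 groups of equal size, 2.20% of the dimmest genes and 7.02% of the brightest were 2-fold apart. At the threshold, Ms4a4c (1.99-fold lower) lay just outside and Anxa2 (2.01-fold lower) just inside.

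**Figure D1:**
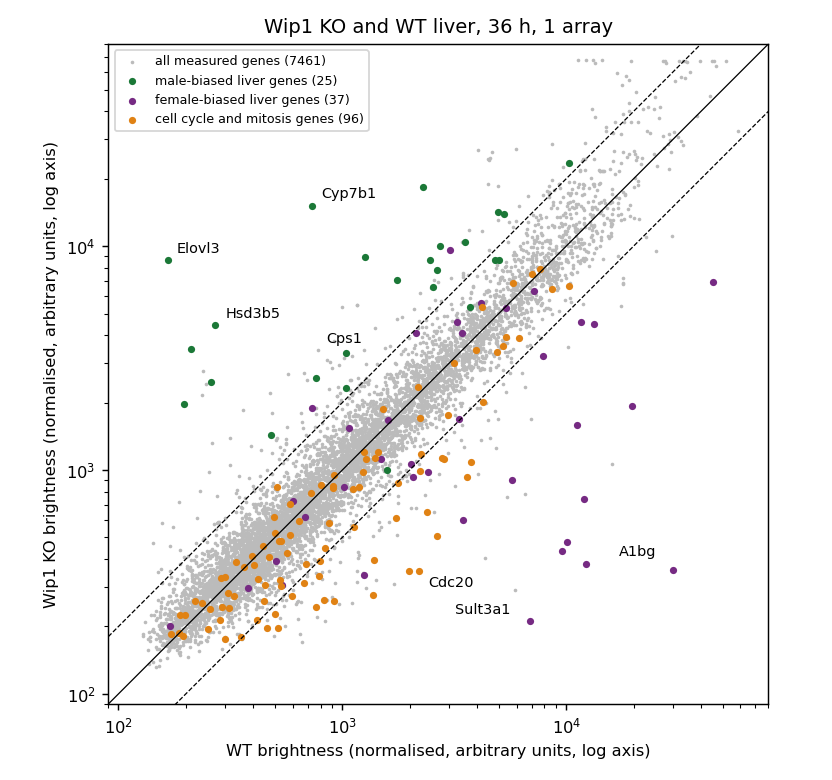
Brightness of each of 7461 measured genes in Wip1 KO liver (vertical, log axis) against WT liver (horizontal, log axis) at 36 h, in arbitrary units, 1 spot per gene. The solid line marks equal brightness and the dashed lines a 2-fold difference; male-biased genes lie mostly above the upper line, the lowest female-biased genes and many cell cycle genes below the lower one, and the row of points at the top holds spots saturated in Wip1 KO.

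Genes of mitosis stood below WT in Wip1 KO liver. Cdc20, which activates the anaphase-promoting complex and lets chromosomes separate, had 356 units in Wip1 KO, against 2197 units in WT, a log2 ratio of -2.63. Cenpa, the histone variant that marks centromeres, had 353 units in Wip1 KO and 1989.8 in WT (-2.50). Cyclin B2, Ccnb2, had 505 units in Wip1 KO and 2656 in WT (-2.40), and its partner kinase Cdk1 had 926 in Wip1 KO and 3612 in WT (-1.96). In each of these genes the WT channel was several-fold brighter.

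**Figure D2:**
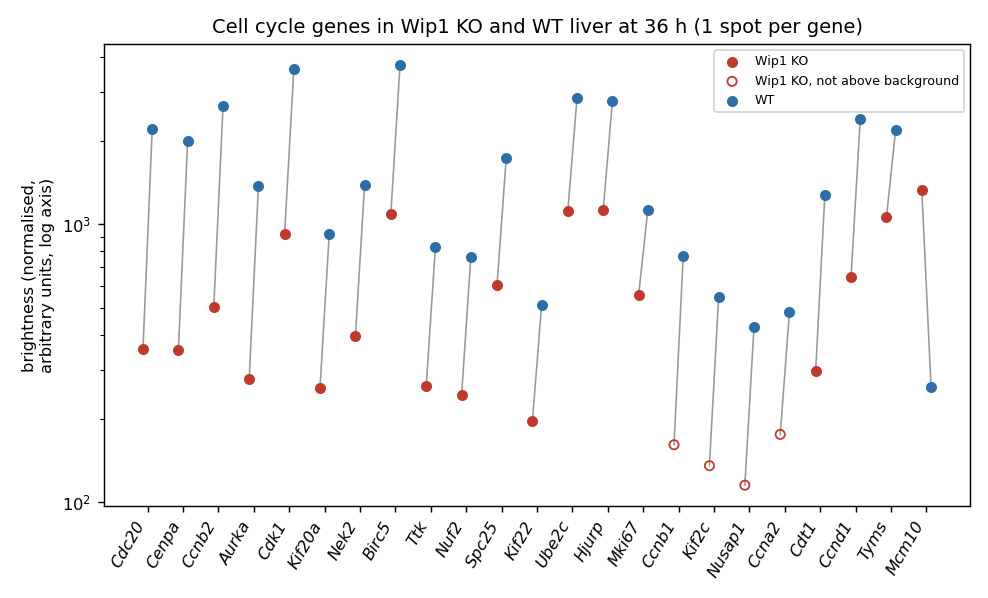
Brightness in arbitrary units (vertical, log axis) of 23 cell cycle genes in Wip1 KO and WT liver at 36 h, 1 spot per gene and genotype, joined by a line. Open circles are spots not above background; the WT point lies above the Wip1 KO point in 22 genes, and Mcm10 is the exception.

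Across 7 lists of cyclins, cell cycle inhibitors, mitotic kinases, kinetochore, spindle, anaphase and chromosome structure genes, 96 distinct genes were measured, of which 71 were below 0, 25 were 2-fold lower and 0 were 2-fold higher, with a median of -0.38. Over all measured genes 3432 of 7461 were below 0. Of the 187 genes of these lists on the array, 2 were above background in Wip1 KO alone and 54 in WT alone. Over all 19438 genes these counts were 127 in Wip1 KO alone and 1490 in WT alone, so an excess in the WT channel was general on this array. In bulk RNA, fewer dividing cells and less RNA per dividing cell cannot be told apart.

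Kinases and the proteins that guide them made up the first of these groups. The median of 9 measured mitotic kinase genes was -0.97, and 4 were 2-fold lower. Aurka, the kinase that matures the spindle poles, had 278 units in Wip1 KO and 1369 in WT (-2.30). Nek2, a kinase of the centrosome, was 3.52-fold lower, and Ttk, which signals that a chromosome is not yet attached, 3.16-fold. Birc5, or survivin, which places Aurora B on the chromosomes, had 1087 units in Wip1 KO and 3746 in WT (-1.79). Aurora B itself, Aurkb, was 1.72-fold lower and so under the threshold.

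All 17 measured kinetochore and centromere genes were below 0 (median -0.93), 7 of them 2-fold lower. Kinetochores tie chromosomes to the spindle. Nuf2 and Spc25, subunits of the Ndc80 complex that grips microtubules, were 3.14-fold and 2.85-fold lower. Hjurp, the chaperone that loads Cenpa, was 2.47-fold lower, and the checkpoint protein gene Mad2l1 2.21-fold. Cenpp and Cenpn, of the inner kinetochore, were each 2.34-fold lower. With the stricter filter of 4 background SDs the median was -0.55, and with dim spots kept it was -0.61.

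Spindle and kinesin genes had a median of -0.60 over 14 measured members, and 16 more were above background in WT alone. Kif20a, a kinesin of cytokinesis, had 259 units in Wip1 KO and 922 in WT (-1.83), and the chromosome arm kinesin Kif22 was 2.62-fold lower. For genes seen in 1 channel alone, the dim spot's own value or the lowest signal above background, whichever was larger, set the fold. Such folds are written as at least and called bounds. Where the dim spot's own value was used, as for Ccnb1, the fold is the spot's plain ratio and the true difference may be smaller. Ccnb1, cyclin B1, was at least 4.79-fold lower in Wip1 KO, Kif2c, which takes microtubules apart, at least 4.05-fold, Nusap1, which bundles spindle fibres, at least 3.72-fold, and cyclin A2, Ccna2, at least 2.76-fold. Prc1, Tacc3, Racgap1, Ect2 and Hmmr, of the spindle and the cleavage furrow, were at least 2.20-fold to 2.70-fold lower. Of 1490 genes above background in WT alone, 73 (4.90%) had a bound of 2-fold or more, and 14 of these 73 were in the cell cycle lists.

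Genes of anaphase and of chromosome structure were lower by less. Among 16 genes of the anaphase-promoting complex and its partners (median -0.20), Cdc20 and Ube2c were 2-fold lower. Ube2c, the enzyme that hands ubiquitin to the complex, had 1118 units in Wip1 KO and 2859 in WT (-1.35), and its other measured probe gave -2.63. Core subunits lay between -0.38 (Anapc4) and 0.34 (Anapc13). Of 21 chromosome structure genes (median -0.36) 5 were 2-fold lower, among them Hmgb2, a chromatin protein of dividing cells (2.25-fold), the condensin genes Ncapd2 (2.18-fold) and Smc4 (2.14-fold), and the proliferation marker Mki67 (2.02-fold). Cell cycle inhibitors and genes of the retinoblastoma pathway had no measured member 2-fold apart (9 genes, median -0.093).

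Promoters of these mitotic genes are shown because many hold the same pair of short elements. In dividing cells, late cell cycle genes are known to be driven through CCAAT boxes, bound by NF-Y, and through the cell cycle genes homology region (CHR), where MuvB complexes sit. The sequences are from RefSeq (GRCm38.p6), run 5′ to 3′ on the gene's strand from 100 bases before to 50 after the start, and carry CCAAT boxes (CCAAT or its reverse complement) and CHR elements (TTTGAA or TTCGAA, either strand) in capitals. Shown is the first promoter that the table lists for each of Cdc20 (chr4:118437294-118437443, minus strand), Ccnb2 (chr9:70421505-70421654, minus), Cenpa (chr5:30666786-30666935, plus), Aurka (chr2:172370521-172370670, minus), Cdk1 (chr10:69352863-69353012, minus) and Ube2c (chr2:164769829-164769978, plus).
Cdc20: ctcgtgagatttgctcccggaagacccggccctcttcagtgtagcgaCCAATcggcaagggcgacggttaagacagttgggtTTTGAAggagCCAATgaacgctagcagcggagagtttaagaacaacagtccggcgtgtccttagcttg
Ccnb2: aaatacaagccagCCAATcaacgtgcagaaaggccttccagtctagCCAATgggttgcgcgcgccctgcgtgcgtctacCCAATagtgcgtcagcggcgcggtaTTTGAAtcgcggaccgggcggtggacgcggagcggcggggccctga
Cenpa: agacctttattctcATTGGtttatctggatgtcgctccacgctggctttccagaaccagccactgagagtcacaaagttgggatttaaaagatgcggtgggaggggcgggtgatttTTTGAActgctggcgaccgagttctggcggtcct
Aurka: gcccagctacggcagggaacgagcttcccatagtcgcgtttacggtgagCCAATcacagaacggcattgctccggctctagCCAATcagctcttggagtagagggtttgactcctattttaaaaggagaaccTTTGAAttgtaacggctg
Cdk1: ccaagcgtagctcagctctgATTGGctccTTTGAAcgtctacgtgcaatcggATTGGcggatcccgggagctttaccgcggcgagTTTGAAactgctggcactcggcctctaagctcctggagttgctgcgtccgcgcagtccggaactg
Ube2c: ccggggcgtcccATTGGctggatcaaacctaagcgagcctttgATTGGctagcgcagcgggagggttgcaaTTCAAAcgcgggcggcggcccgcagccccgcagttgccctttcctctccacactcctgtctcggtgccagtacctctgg
All 6 stretches hold at least 1 element of each kind, but they are examples of the pair and do not stand for the other genes. In this same window 12 of the 21 cell cycle genes that were 2-fold lower and have a promoter held both elements (57.1%). The share over all genes with a promoter was 2.83%, and in measured cell cycle genes not 2-fold lower it was 7 of 57 (12.3%).

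Over the full 300 bases of each promoter (250 before to 50 after the start), 15 of the 21 cell cycle genes that were 2-fold lower and have a promoter in the table held a CHR element (71.4%), and 17 held a CCAAT box (81.0%). Among all 27025 genes of the table the shares were 21.7% and 41.1%; a gene with several listed promoters was counted if any of them held the letters. Both elements together were in 15 of 21 genes (71.4%), against 9.65% of all genes. In cell cycle genes that were measured and not 2-fold lower, 21 of 57 held a CHR element (36.8%) and 31 a CCAAT box (54.4%). Both elements together were in 14 of these 57 (24.6%). Among measured cell cycle genes, those 2-fold lower were thus the richer in both. CHR letters were not particular to cell cycle genes. They were in 19 of 47 female-biased genes (40.4%) and 10 of 29 male-biased genes (34.5%) with a promoter. Both elements together were in 10.6% of the female-biased and 6.90% of the male-biased genes. Of 49 cell cycle genes above background in WT alone, 26 held a CHR element (53.1%) and 31 a CCAAT box (63.3%). In all 120 genes that were 2-fold lower and have a promoter, the CHR share was 25.8%, and in the 146 that were higher 15.1%. Over the 5695 measured genes with a promoter it was 16.9%. The CCAAT shares were 49.2% in the lower, 49.3% in the higher and 43.1% in all measured genes. A search on both strands for E2F motifs (TTTCGCGC and TTTGGCGC) found them in 3 of the 21 genes (14.3%), against 0.929% of all genes. The letters TTCNNNGAA, a STAT motif, were in 0 of the 21 and in 9.55% of all genes. In cell cycle genes measured and not 2-fold lower, E2F motifs were in 3 of 57 (5.26%) and the STAT motif in 1 (1.75%). These are matches of letters, a description and not binding sites.

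Genes of S phase were below WT by less than those of mitosis. Of 17 measured licensing and origin genes 15 were below 0 (median -0.29), and of 20 replication fork genes 18 (median -0.33). Cdt1, which loads the replicative helicase onto origins, had 296 units in Wip1 KO and 1276 in WT (-2.11). Gins2 and Cdc45, parts of the active helicase, were 1.79-fold and 1.74-fold lower, the flap endonuclease gene Fen1 1.82-fold, and the clamp loader gene Rfc4 1.75-fold. Mcm10, which helps to open origins, was the one member 2-fold higher, with 1325 units in Wip1 KO and 261 in WT (2.35) on 1 probe. Among 27 nucleotide synthesis genes (median -0.13), thymidylate synthase, Tyms, was 2.07-fold lower. Cyclin D1, Ccnd1, which carries growth signals into the cell cycle, had 646 units in Wip1 KO and 2388 in WT (-1.89).

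Targets of p53, which Wip1 restrains, were evenly placed at 36 h. The median of 19 measured targets was 0.026 with 11 above 0, and 1 was 2-fold apart, Gadd45b (-1.43), a stress gene that NF-kappa B also induces. Bax, a pro-apoptotic member of the Bcl2 family, was 1.51-fold lower and Ccng1, cyclin G1, 1.28-fold, while Xpc, which finds damaged bases, was 1.73-fold higher. None of 31 measured damage response and repair genes was 2-fold apart (median -0.099). The gene of p53 itself, Trp53, had 179.9 units in Wip1 KO and 299 in WT (-0.73), and the damage kinase gene Atm 323 in Wip1 KO and 195 in WT (0.73). Of 12 related phosphatases and members of the p38 and JNK pathway 9 were above 0 and 0 were 2-fold apart, with the p38 gene Mapk14 1.58-fold and its activator Map2k4 1.63-fold higher.

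The widest ratios on the array were those of sex-biased liver genes. In mice, the pulsed growth hormone of males and the steadier growth hormone of females set many liver genes at different levels, through STAT5 and partner factors such as BCL6 and CUX2. A1bg, a female-biased plasma protein gene, had 356 units in Wip1 KO and 30106 in WT (-6.40), and its 3 measured probes gave ratios between -6.40 and -6.08. Elovl3, a male-biased fatty acid elongase gene, had 8660.1 units in Wip1 KO and 166 in WT (5.71). Both channels of these genes were above background, so the ratios are measured values and not bounds. The lowest WT level above background was 106 units, so the size of the Elovl3 ratio rests on a dim WT spot.

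Of 25 measured male-biased genes 24 were above 0 and 21 of these were 2-fold higher (median 1.68). Cyp7b1, a hydroxylase of oxysterols and steroids, had 15171 units in Wip1 KO and 732 in WT (4.37). Hsd3b5, a male-specific steroid dehydrogenase, had 4443 in Wip1 KO and 269 in WT (4.05). Scara5, a ferritin receptor, was 9.96-fold higher, Nudt7, a hydrolase of coenzyme A in peroxisomes, 8.03-fold, and Cyp2d9, a testosterone hydroxylase, 7.09-fold. The terminal complement genes C6 (9.55-fold), C8b (3.67-fold), C9 (3.52-fold) and C8a (2.86-fold), which build the membrane attack complex, are male-biased as well. The member below 0 was Zap70 (-0.66), a T cell kinase gene that the lymphocyte list also holds.

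Of 37 measured female-biased genes 27 were below 0, with 17 of them 2-fold lower, and 2 were 2-fold higher (median -0.92, or -0.47 with dim spots kept). The sulfotransferase genes Sult3a1 (-5.03), Sult3a2 (-5.01) and Sult2a2 (-4.46) came next to A1bg. Cyp17a1, a steroid hydroxylase, was 7.01-fold lower, and Cyp2b9, Cyp3a41a and Cyp3a44, P450 genes of female liver, were 6.33-fold, 6.56-fold and 2.95-fold lower. Hao2, a peroxisomal oxidase, was above background in WT alone and at least 8.10-fold lower, and Cyp2b13 at least 6.36-fold. The lipoprotein lipase gene Lpl was one of the exceptions (2.60-fold higher). Probes of the Sult, Cyp3a and Cyp2d families can bind near-identical copies, so a value may belong to more than 1 gene.

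Genes on the sex chromosomes were read beside these lists. The Y-linked Ddx3y, an RNA helicase gene, had 2307 units in Wip1 KO and 872 in WT (1.40), and its X-linked partner Ddx3x had 1616 in Wip1 KO and 1549 in WT (0.062). Of Eif2s3y, a translation factor gene, the brighter probe had 1979.5 units in Wip1 KO and was not above background in WT, at least 14.3-fold higher, while the X-linked Eif2s3x had a ratio of 0.018. The dimmer Eif2s3y probe had 174 units in Wip1 KO, not above background, and 185 in WT. Kdm5d, a histone demethylase gene, had 262 units in Wip1 KO and 151 in WT (0.80), Usp9y was above background in WT alone, and the other 3 Y-linked genes on the array were below background in both channels. Since the sex of the animals behind each RNA is not given in the sources used here, a difference in sex and the difference in genotype cannot be told apart in any value of this array. The part of the sex-biased genes in the other groups was not tested, beyond medians taken without them. Of the growth hormone pathway itself 16 genes were measured, 12 above 0 (median 0.39, or 0.11 with dim spots kept). Onecut1 (2.31-fold higher) and Igfbp1 (3.88-fold lower) were 2-fold apart, the feedback inhibitors Socs3 and Socs2 were at 0.70 and -0.63, Igfals, which carries IGF1 in blood, at 0.74, and the prolactin receptor gene Prlr at -0.41.

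**Figure D3:**
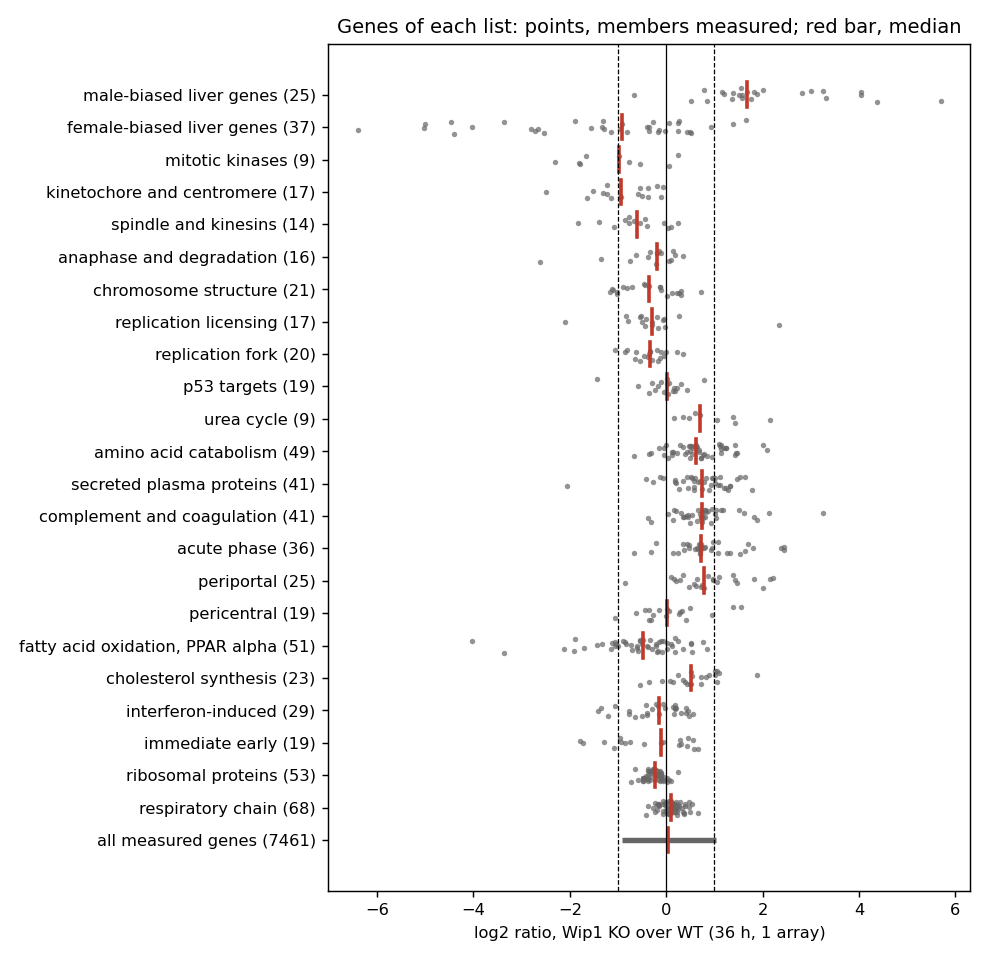
Log2 ratios of Wip1 KO over WT at 36 h (horizontal) for the measured genes of 23 lists (rows, number of genes in brackets), with 1 point per gene, the median of each list as a red bar and dashed lines at 2-fold. The grey bar in the last row spans the central 95% of all 7461 measured genes; the medians of the mitotic, fatty acid oxidation and female-biased lists lie to the left of 0, and those of the urea cycle, plasma protein, acute phase, cholesterol and male-biased lists to the right.

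Genes of the working hepatocyte stood above WT in Wip1 KO liver. All 9 measured urea cycle genes, which turn ammonia into urea, were above 0 (median 0.70) and 4 were 2-fold higher. Cps1, the first enzyme of the cycle, had 3428 units in Wip1 KO and 775 in WT (2.14). Ass1 and Asl, which make and split argininosuccinate, were 2.63-fold and 2.08-fold higher, and the liver glutaminase gene Gls2 2.70-fold.

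Among 49 amino acid catabolism genes 43 were above 0 (median 0.61), 14 were 2-fold higher and 0 2-fold lower. Tdo2, which opens the ring of tryptophan, had 19014 units in Wip1 KO and 4486 in WT (2.08), and Afmid and Kynu of the same pathway were 2.68-fold and 2.35-fold higher. Sds, serine dehydratase, had 7026 in Wip1 KO and 1749 in WT (2.01). Histidine ammonia-lyase, Hal, was 2.76-fold higher, the lysine-degrading enzyme Aass 2.71-fold, Tat, for tyrosine, 2.30-fold, Hpd, the next enzyme of tyrosine breakdown, 2.12-fold, and Bhmt, which remethylates homocysteine, 2.38-fold. Of enzymes that build amino acids, asparagine synthetase, Asns, was 2.72-fold higher, and Psat1, of serine synthesis, was above background in WT alone and at least 4.59-fold lower.

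Glucose genes were divided (24 measured, 13 above 0, median 0.057). Fbp1, a control enzyme of gluconeogenesis, had 59366 units in Wip1 KO and 16789 in WT (1.82), and Ppp1r3c, which targets a phosphatase to glycogen, was 2.50-fold higher. The glucose transporter gene Slc2a2 was 2.14-fold lower.

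Plasma proteins followed the same direction. Of 41 measured secreted proteins 36 were above 0 (median 0.73), 14 were 2-fold higher and 1, Angptl4, 2-fold lower. Hpx, hemopexin, which binds heme, had 57548 units in Wip1 KO and 18410.3 in WT (1.64). The antitrypsin gene Serpina1c was at least 3.46-fold higher, its Wip1 KO spot being saturated (a dimmer probe gave 0.93), and the corticosteroid carrier Serpina6 was 2.76-fold higher. Itih4, Itih3 and Itih1, heavy chains of the inter-alpha-trypsin inhibitors, were 2.91-fold, 2.50-fold and 2.16-fold higher. Apolipoproteins were above 0 in 14 of 20 cases (median 0.27), with Apoa1 2.19-fold higher and Apoa4 1.80-fold lower.

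Of 41 complement and coagulation genes 39 were above 0 (median 0.74) and 11 were 2-fold higher. Outside the male-biased members these included C4b (4.40-fold), C2 (2.19-fold), Hc, which encodes complement C5 (2.04-fold), and prothrombin, F2 (2.04-fold). Hepatocyte transcription factors had a median of 0.13 over 24 genes, with Onecut1, Cebpa (2.03-fold) and Hnf4a (1.80-fold) higher.

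Genes of the acute phase list were above 0 in 33 of 36 cases (median 0.73), 11 were 2-fold higher and 0 2-fold lower. Hepatocytes switch on many acute phase genes under IL-6, but not every gene named here is one of these, and a response to IL-6 was not tested. Saa4 had 24812 units in Wip1 KO and 4547 in WT (2.45). Saa1, a serum amyloid A of inflammation, was 2.39-fold higher and Saa3 2.09-fold. The protease inhibitor genes A2m (5.19-fold) and Mug2 (5.43-fold) were higher, as was Mug4-ps (6.64-fold), whose probes can bind other members of the murinoglobulin family. Steap4, an iron reductase, was 3.23-fold higher. Saa, Serpina1 and C4 genes also have close copies, which their probes may bind.

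Hepatocyte genes of different positions in the liver lobule had different medians. Of 25 genes of periportal hepatocytes, which receive oxygen-rich blood, 24 were above 0 (median 0.78) and 9 were 2-fold higher. Etnppl, a lyase of phosphoethanolamine, had 5439.9 units in Wip1 KO and 1165 in WT (2.22), and urate oxidase, Uox, was 2.14-fold higher. Of 19 genes of pericentral hepatocytes, around the central vein, 10 were above 0 (median 0.022), with Cyp2e1 (2.95-fold) and Cyp1a2 (2.62-fold) higher and Cyp2a5 (2.08-fold) lower.

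**Figure D4:**
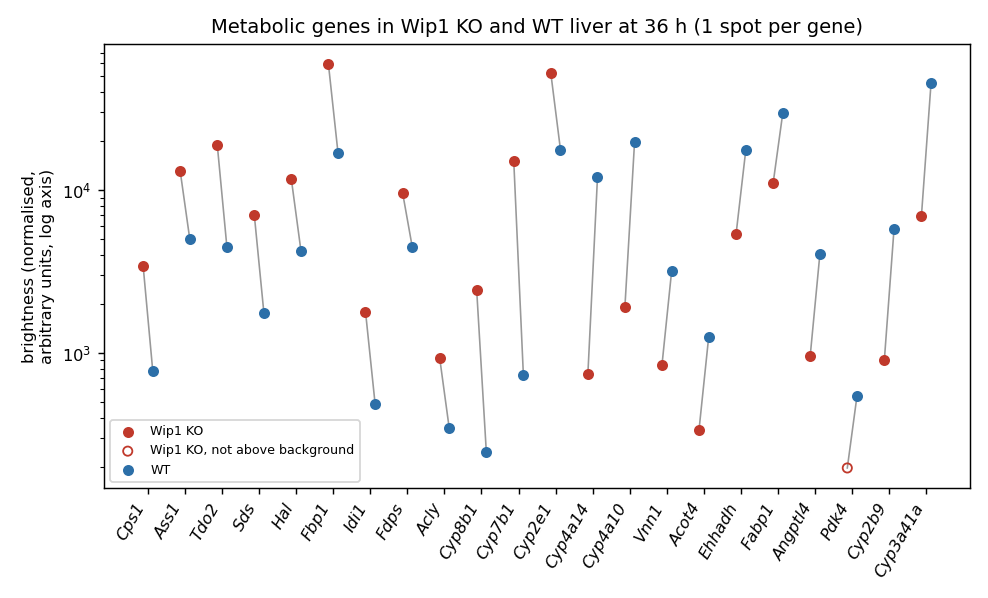
Brightness in arbitrary units (vertical, log axis) of 22 metabolic genes in Wip1 KO and WT liver at 36 h, 1 spot per gene and genotype, joined by a line. The Wip1 KO point lies above the WT point for the 12 genes from Cps1 to Cyp2e1 and below it for the 10 from Cyp4a14 to Cyp3a41a; the open circle of Pdk4 is a spot not above background.

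Genes of fatty acid oxidation, many of them targets of the nuclear receptor PPAR alpha, stood below WT. Of 51 measured members 38 were below 0 (median -0.48), 13 were 2-fold lower and 0 2-fold higher. Cyp4a14, a fatty acid omega-hydroxylase, had 739.6 units in Wip1 KO and 12018 in WT (-4.02), and Cyp4a10 had 1928 in Wip1 KO and 19734 in WT (-3.36). Both are also female-biased, while the male-biased Cyp4a12b went the other way, with 3474 units in Wip1 KO and 210.0 in WT (4.05, with another probe at 2.58).

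Members outside the Cyp4a family were lower too. Vnn1, which splits pantetheine, was 3.76-fold lower, the peroxisomal enzymes Ehhadh (3.25-fold) and Acaa1b (2.50-fold) and the fatty acid binding protein Fabp1 (2.70-fold) likewise. Bdh1, which makes the ketone body beta-hydroxybutyrate, was 2.19-fold lower, Decr1, of mitochondrial oxidation, 2.08-fold, and Crat, a carnitine transferase, 2.07-fold. Angptl4, an inhibitor of lipoprotein lipase that PPAR alpha induces, had 964 units in Wip1 KO and 4036 in WT (-2.07). Pdk4, which holds back glucose oxidation, was above background in WT alone and at least 2.75-fold lower. Without the sex-biased genes the list's median was -0.38.

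Lipid synthesis pointed upward. Of 35 genes of fatty acid and triglyceride synthesis 26 were above 0 (median 0.28), with the citrate lyase gene Acly (2.72-fold) and the acetyl-CoA synthetase gene Acss2 (2.25-fold) higher and malic enzyme, Me1, 2.34-fold lower. Of 23 cholesterol synthesis genes 20 were above 0 (median 0.52), 6 were 2-fold higher and 0 lower by as much. Idi1, isopentenyl-diphosphate isomerase, had 1796 units in Wip1 KO and 485 in WT (1.89). Fdps was 2.15-fold higher, Cyp51 2.08-fold, Sc5d 2.09-fold and Nsdhl 2.02-fold, enzymes along the same path, and Insig1, which holds the SREBP regulators in the endoplasmic reticulum, 2.01-fold.

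Sterol genes are known to need NF-Y beside SREBP, and their promoters were searched for the same letters. A CCAAT box was in 20 of the 23 cholesterol genes with a promoter in the table (87.0%), against 41.1% of all genes, and a CHR element in 2 (8.70%), against 21.7%. The promoters of Idi1 (chr13:8885506-8885655, plus strand) and Cyp51 (chr5:4104648-4104797, minus strand) are shown, from 100 bases before to 50 after the start, with CCAAT boxes in capitals.
Idi1: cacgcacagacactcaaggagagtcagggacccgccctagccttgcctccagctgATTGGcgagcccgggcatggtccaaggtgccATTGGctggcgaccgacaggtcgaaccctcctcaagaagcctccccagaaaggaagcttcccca
Cyp51: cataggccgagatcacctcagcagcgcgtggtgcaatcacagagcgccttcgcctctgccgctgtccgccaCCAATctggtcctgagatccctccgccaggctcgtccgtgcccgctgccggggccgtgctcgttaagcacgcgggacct
Idi1 holds 2 boxes on the reverse strand and Cyp51 holds 1 on the gene's strand, all within 50 bases before the start.

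Bile acid genes had a median of 0.40 over 30 members, 5 of them 2-fold higher and 2 of them 2-fold lower. Cyp8b1, which makes cholic acid, had 2429.6 units in Wip1 KO and 247 in WT (3.30), and Cyp2c70, which makes muricholic acids in mice, was 2.32-fold higher. Scp2, a peroxisomal sterol carrier, was 3.31-fold higher. Of the uptake transporters, the male-biased Slco1a1 was 2.24-fold higher and Slco1a4 4.11-fold lower, and the exporter subunit gene Slc51b was 2.44-fold lower. In steroid metabolism (20 genes, median 0.20) the Hsd3b family stood together, with Hsd3b4 (4.69-fold), Hsd3b3 (2.82-fold) and Hsd3b6 (2.47-fold) higher beside Hsd3b5, all of them close copies of each other.

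Genes of drug metabolism were apart one by one rather than as families. Of 35 P450 genes of families 1 to 3, 5 were 2-fold higher and 5 lower (median 0.34, or -0.08 with dim spots kept), and 11 of the 35 are sex-biased. Sulfotransferases had 5 of 8 measured genes 2-fold lower (median -1.97), but without the 4 sex-biased ones the median was 0.074. Sult1a1, a phenol sulfotransferase outside the sex-biased list, had 9549 units in Wip1 KO and 25242 in WT (-1.40). Glutathione transferases and antioxidant genes had a median of -0.15 over 40 members, with Gstt3 (2.70-fold) and Gsta1 (2.72-fold) lower and Gstp1 (2.96-fold), which is male-biased, higher. Aldehyde oxidase Aox3 was 3.63-fold higher and the organic anion transporter gene Slc22a7 3.85-fold. None of 12 UDP-glucuronosyltransferase genes was 2-fold apart (median 0.35).

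Major urinary proteins, carriers of pheromones that male mouse liver makes in bulk, were all higher. Of 5 measured genes of this family and its relatives 4 were 2-fold higher (median 2.42). Mup4 had 24171 units in Wip1 KO and 4507 in WT (2.42). The spots of Mup2, Mup5 and Mup10 were saturated in Wip1 KO, so their ratios are bounds, at least 5.98-fold, 5.49-fold and 5.10-fold. Mup genes are nearly identical in sequence, and their probes cannot be taken as separate genes.

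Signalling genes of early regeneration that were 2-fold apart were lower in Wip1 KO, apart from a receptor and a stress hormone gene. Of 19 immediate early genes 11 were below 0 (median -0.098, or 0.27 with the filter of 4 background SDs), 4 were 2-fold lower and 0 higher. Id1, an inhibitor of differentiation factors that BMP signals induce, had 510.1 units in Wip1 KO and 1756 in WT (-1.78). Ier3 had 353 in Wip1 KO and 1167 in WT (-1.72), and Ccn1, a matrix signal that YAP induces, 257 in Wip1 KO and 626 in WT (-1.29). Igfbp1, a binding protein of insulin-like growth factors that rises early after hepatectomy, had 1248 units in Wip1 KO and 4844 in WT (-1.96). Among 17 growth factor and receptor genes (median -0.065) the EGF receptor gene Egfr, which is male-biased, was 2.57-fold and the stress hormone gene Gdf15 2.08-fold higher. None of 24 mTOR and insulin pathway genes was 2-fold apart (median 0.047), with Mtor at -0.80.

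Medians of the immune lists were slightly below 0, with single genes further below. Interferon-induced genes had a median of -0.16 over 29 members, with Ifi27 (2.65-fold), Irf7, which amplifies interferon production (2.56-fold), Rsad2 (2.31-fold) and Irgm2 (2.07-fold) lower and 0 2-fold higher. Cytokine and NF-kappa B genes had a median of -0.22 over 21, with the monocyte attractant gene Ccl2 2.14-fold lower. Above background in WT alone were Oasl1, an interferon-induced gene (at least 3.82-fold lower), and, outside the lists, the chemokine gene Cxcl3 (at least 5.22-fold lower) and Clec4d, a lectin receptor gene of myeloid cells (at least 5.09-fold lower).

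Summed markers of macrophages and of stellate cells were close between Wip1 KO and WT. Macrophage and Kupffer cell markers had a median of 0.024 with 0 of 28 measured 2-fold apart, and the summed level of 32 markers above background in either channel was 70746 units in Wip1 KO and 71943 in WT. Endothelial markers had a median of 0.11 (25 genes), with the sinusoidal receptor gene Stab2 2.36-fold higher, and summed to 24321 units in Wip1 KO and 21061 in WT. Stellate cell and matrix genes had a median of -0.17 (22 genes) and summed to 38485 units in Wip1 KO and 39874 in WT. Among them the contractile genes Tagln (3.57-fold) and Acta2 (2.26-fold) and the basement membrane gene Nid1 (2.76-fold) were lower. Bile duct markers were below 0 in 8 of 10 cases (median -0.18) and summed to 65765 units in Wip1 KO and 51379 in WT. Lcn2, which also counts among the neutrophil markers, had their highest ratio (0.98), and without it the sum was lower in Wip1 KO. Prom1 was above background in WT alone, at least 5.93-fold lower.

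Blood cells and neighbouring tissues gave few markers. Neutrophil markers were below 0 in 7 of 8 cases (median -0.40), with Chil3 2.76-fold lower, while their summed level was 42713 units in Wip1 KO and 27717 in WT. Of that sum Lcn2, which hepatocytes also make, gave 35780.1 units in Wip1 KO and 18194 in WT. Of 25 lymphocyte markers on the array 16 were below background in both channels, and Cd3g, of the T cell receptor, was 2.48-fold higher. Erythroid markers summed to 34328 units in Wip1 KO and 43186 in WT, with the globin genes Hbb-b1 (1.44-fold) and Hba-a1 (1.42-fold) lower and Alas2, the heme synthesis gene of red cells, which is also male-biased, 3.38-fold higher. Markers of muscle, fat and mesothelium summed to 22516 units in Wip1 KO and 13728 in WT. Car3, a carbonic anhydrase that hepatocytes share, gave 18965 of these units in Wip1 KO and 9283 in WT, 2.04-fold more. Pancreas markers were below background in both channels in 27 of 31 cases. The part of these cell types in the other results was not tested.

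Housekeeping machinery held few genes 2-fold apart on this array, though ribosomal protein genes leaned below WT. Of 53 ribosomal protein genes 48 were below 0, none by 2-fold (median -0.24, range -0.73 to 0.24). Respiratory chain subunits were above 0 in 49 of 68 cases (median 0.11), proteasome subunits in 19 of 31 (median 0.049) and aminoacyl-tRNA synthetases in 10 of 18 (median 0.030), with 0 genes 2-fold apart in each. Ribosome biogenesis had a median of -0.014 over 35 genes, with Rrs1 2.04-fold higher and its 3 probes between 0.23 and 1.03.

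Stress genes were apart singly. Heat shock genes had a median of 0.038 over 27, with the co-chaperone Dnajb1 2.06-fold lower. In the endoplasmic reticulum response (32 genes, median -0.019) the folding factors Creld2 (2.87-fold) and Manf (2.07-fold) were lower, while Derl3, of the pathway that removes misfolded proteins, had 2204 units in Wip1 KO and 477 in WT (2.21, with another probe at 1.37). Among 15 clock genes 12 were above 0 (median 0.26), with Cry1, a repressor of the clock, 2.23-fold higher. Of 23 apoptosis genes 16 were below 0 (median -0.11), and Dffa, the inhibitor of the caspase-activated nuclease, had 308 units in Wip1 KO and 1704 in WT (-2.47) on its 1 measured probe.

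Genes outside the lists made up 87 of the 199 that were 2-fold higher and 70 of the 154 that were lower. Among those brighter than the median, Akr1c18, which inactivates progesterone, was 20.3-fold lower, Ly6d, a surface protein, 10.7-fold lower, and Akr1b7, an aldose reductase, 8.36-fold lower. BC013476, whose role is not given here, was 7.21-fold lower. On the other side were Fshb (5.38-fold higher) and Serpina11, of the serpin family (4.73-fold higher). Fshb, known as a hormone subunit of the pituitary, had 5366 units in Wip1 KO and 997 in WT on 1 probe. A name without a match in the gene table, LOC638212, had 1060.3 units in Wip1 KO and 16083 in WT (-3.92). Of genes above background in WT alone and not yet named, the largest bounds were those of BC014805 (at least 8.80-fold lower), the tight junction gene Cldn10 (at least 5.19-fold), Serpinb8 (at least 5.04-fold) and the spindle gene Knstrn (at least 4.84-fold). In the Wip1 KO channel alone 127 genes were above background, 12 of them (9.45%) 2-fold higher at their bound, led after Eif2s3y by Serpina4-ps1 (at least 5.48-fold), Cml3 (at least 4.48-fold) and the granzyme gene Gzmm (at least 2.97-fold).

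Of the 353 genes that were 2-fold apart at 36 h, 330 were also measured on the same probe of the 24 h array, which compared the same genotypes 24 h after the operation. At 24 h, 28 of them were 2-fold apart in the same direction and 19 in the opposite one, and 283 were under 2-fold. Over the 7021 genes measured on both arrays, 2.05% were 2-fold apart at 24 h. Genes lower at both times included A1bg (-2.05 at 24 h), Sult3a2 (-4.02) and Dffa (-2.26), and those higher at both included A2m (1.95), Mug2 (1.29), Serpina6 (1.82) and Cyp1a2 (1.77). Both arrays carried Wip1 KO RNA in Cy5, so dye and genotype cannot be told apart at either time.

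The main groups did not share 1 pattern over time. Each median below was taken over the members measured at its own time, so the genes behind a pair of medians can differ. For example, 9 mitotic kinases were measured at 36 h and 14 at 24 h, 23 and 29 cholesterol genes, and 25 and 22 male-biased genes. Mitotic kinases had a median of -0.97 at 36 h and 0.40 at 24 h, cholesterol synthesis 0.52 at 36 h and -0.17 at 24 h, and acute phase genes 0.73 at 36 h and -0.082 at 24 h. Periportal genes had a median of 0.78 at 36 h and 0.44 at 24 h, and secreted plasma proteins 0.73 at 36 h and 0.36 at 24 h. Male-biased genes had 1.68 at 36 h and 0.14 at 24 h. The Y-linked Ddx3y had a log2 ratio of 1.40 at 36 h and 0.086 at 24 h. At 24 h the Eif2s3y probe that was bright in Wip1 KO at 36 h had 92.7 units in Wip1 KO and 106 in WT. It did not pass the filter for measured genes at 24 h. The sex of the animals is not given for either array, so time and a difference in sex between the arrays cannot be told apart. With 1 array per time, differences between the times were not tested.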

How the data were processed

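RNA from Wip1 KO and WT liver, per the labels, was set against each other on 1 two-colour array per time. The deposited spot intensity values (median foreground, median and SD of local background) came from LuxScan, per the file headers, with no normalization. A quality score per spot was also deposited, its meaning not given in the sources used here. The authors' deposited table of linear ratio values, whose normalization is not given in the sources used here, served as an alternative only. Its rows were aligned with the scanner ratios of Wip1 KO over WT by their correlation (0.974 at 36 h), which also gave the direction.

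Background was corrected with limma 3.58.1 in R 4.3.3 (normexp, offset 50) and dyes were balanced by loess within the array, with 1776 control spots at weight 0. Normexp shrinks ratios of dim spots. Of several probes of a gene the brightest was used, and a probe below 2 background SDs in 1 channel gave a bound. That bound is not strict where the dim spot's own value set it. Saturation at 65535 also makes a ratio a bound. Names in the files were updated through the RefSeq gene table, by symbol (14166 names), synonym (3898) or accession (77), and 1295 kept the file's name. Ratios and lists were computed with Python 3.11.15, numpy 2.4.6 and pandas 2.3.3, after the steps were tested on simulated data. With 1 array, the number of arrays limits the precision.

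The comparison, the genes and the 66 gene lists were chosen with earlier results of these data known. Named genes were the 20 highest and 20 lowest ratios among genes brighter than the median, list members 2-fold apart or, in lists with none, up to 4 of largest ratio, and the 10 largest bounds in each direction, not all of which are printed. Other members were named for their role after their values were seen. Background correction, normalization, filters, choice of probe and the deposited ratios were varied. Some members of the lists are not reported here.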

Additional observations from a re-analysis of the deposited data

Results flagged for a closer look

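For 19 genes the log2 ratio of Wip1 KO over WT was at least 2-fold in size at both times and of opposite sign. With 1 array per time, the difference was not tested, and time cannot be told apart from a difference in sex between the arrays.

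Of these, 16 were lower in Wip1 KO at 36 h and higher at 24 h. Genes of division were Ccnb2 (-2.40 at 36 h and 1.52 at 24 h), Ttk (-1.66 at 36 h and 1.01 at 24 h) and Mki67 (-1.02 at 36 h and 1.58 at 24 h). Early response genes were Igfbp1 (-1.96 at 36 h and 2.07 at 24 h), Id1 (-1.78 at 36 h and 1.54 at 24 h) and Ier3 (-1.72 at 36 h and 1.14 at 24 h). The contractile genes and the galectin gene of connective tissue were Tagln (-1.84 at 36 h and 1.06 at 24 h), Acta2 (-1.18 at 36 h and 1.62 at 24 h) and Lgals1 (-1.12 at 36 h and 1.31 at 24 h). The platelet chemokine gene was Pf4 (-1.96 at 36 h and 2.34 at 24 h). Genes of drug and prostaglandin metabolism were Cyp2b9 (-2.66 at 36 h and 1.36 at 24 h), Ptgr1 (-1.53 at 36 h and 1.33 at 24 h) and Gsta1 (-1.44 at 36 h and 1.12 at 24 h). The other 3 were Map4k4 (-1.52 at 36 h and 1.14 at 24 h), Slc16a3 (-1.16 at 36 h and 1.28 at 24 h) and 1700047G07Rik (-1.04 at 36 h and 1.05 at 24 h).

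The 3 genes that were higher in Wip1 KO at 36 h and lower at 24 h were Saa4 (2.45 at 36 h and -1.43 at 24 h), Derl3 (2.21 at 36 h and -2.43 at 24 h) and Xlr3a (1.78 at 36 h and -2.90 at 24 h).

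Probes without a gene name were outside the comparisons. Of 1283 such probes measured in both channels, 51 were 2-fold apart, 22 higher and 29 lower in Wip1 KO.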

How the results depend on the processing

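Across the other settings of background correction, normalization, filter, probe and values, 166 to 254 genes were 2-fold higher and 113 to 235 were lower, the most (235) with dim spots kept. The mitotic kinase median was -1.36 with plain background subtraction, -1.32 with no background correction and -1.25 in the deposited ratios. With dim spots kept, the median of female-biased genes was -0.47 and that of kinetochore genes -0.61, and kinetochore genes had -0.55 at 4 background SDs. Spindle genes had a median of -0.87 with genes seen in 1 channel at their bounds. Sulfotransferases reversed to 0.074 without sex-biased genes. From 100 bases before the start, 9.87% of all genes held a CHR element and 26.3% a CCAAT box. The cause of these shifts was not tested. In all, 894 list medians under these settings moved by less than the SD between probes of a gene, 26 by more and 1 reversed. The 207 measured genes 2-fold apart or among the largest ratios that the rule named kept their direction in each setting that measured them, but not all stayed 2-fold apart: 184 did with loess on spots above background, 191 with print-tip loess and 195 in the deposited ratios. A setting that kept only spots with quality score 100 was added after seeing the data and gave 194 higher and 150 lower genes. No paired analysis was possible because each time has 1 array, and no replicate could be left out. Dim and saturated spots limit what could be measured: 10360 genes were below background in both channels.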

Other observations

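A pair of genes outside the lists and dimmer than the median, chosen after their values were seen, had wide ratios in Wip1 KO liver at 36 h. Tff3, a trefoil peptide gene of mucus-secreting epithelia, had 2773 units in Wip1 KO and 237 in WT (3.55), and Nat8, an acetyltransferase gene, had 2169 units in Wip1 KO and 235 in WT (3.20), each on 1 probe. Nat8 and Cml3, which was above background in Wip1 KO alone, belong to the same family.

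Aldehyde and ester metabolism held further values. Aldh3a2, which oxidises fatty aldehydes, had 322 units in Wip1 KO and 1409 in WT (-2.13), while the folate enzyme gene Aldh1l1 was 2.73-fold and the carboxylesterase gene Ces3b 3.34-fold higher. Acot4, a peroxisomal thioesterase, was 3.70-fold lower, and the uncoupling protein gene Ucp2 2.10-fold. Slc3a1, a subunit of an amino acid transporter, was 2.78-fold higher. Car2, a carbonic anhydrase gene of red cells and other cells, was 2.73-fold lower.

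Around Ppm1d, whose own probe was below background, the 20 nearest measured genes on each side were read, a choice made after seeing the data. Of these 40 genes 1 was 2-fold higher (Ap2b1, 1.04) and 2 were 2-fold lower (Tmem98, -1.31, and Ccl2, -1.10), and their median was -0.0068.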
